A study of Mus musculus with 8 samples.

Results

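The genes described here are 4 FXYD regulators (Fxyd1, Fxyd5, Fxyd6 and Fxyd7) and 4 subunits of the sodium pump (Atp1a4, Atp1b1, Atp1b2 and Atp1b3), 8 of the 24988 genes in the expression table of an adult mouse testis study. They were picked by symbol. The set was selected because Fxyd5 was higher in the knockout libraries, so the levels of this same comparison chose it. The knockout and wild type values of the 8 genes are therefore given as a description, without a test.

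RNA sequencing compared 4 libraries of adult testis labelled Kpna2-/- with 4 labelled wild type. The Kpna2 protein belongs to the importin alpha adaptors, which help bring other proteins into the nucleus, and its loss is linked to male infertility in the title of the study. The labels give adult as the only age and name no strain, littermate status, batch or agent. They also do not say how the allele was made, or whether each library is from its own animal, so the spread between them may be partly technical. Whole testis was sequenced, and in such bulk RNA fewer cells of a type and less RNA per cell cannot be told apart.

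The sodium pump exports sodium and imports potassium at the expense of ATP. Its alpha subunit is the catalytic chain, its beta subunit is a glycoprotein needed for folding and delivery to the membrane, and small single-span FXYD proteins bind the assembled pump and adjust its affinity for ions. The alpha isoform Atp1a4 is made by male germ cells and is needed for sperm motility. FXYD proteins carry the names phospholemman (Fxyd1), dysadherin (Fxyd5) and phosphohippolin (Fxyd6), and dysadherin is also known for lowering cell adhesion.

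The stretch that defines the FXYD family is shown for the 4 FXYD members, because the members are compared with each other below. Each line holds 60 coding bases, 5′ to 3′ on the coding strand, from GENCODE release M21 on GRCm38, with the codons of the family's name-giving motif in capitals. All 4 genes are protein coding. The Fxyd1 line lies within chr7:31053449-31054306 (minus strand), the Fxyd5 line within chr7:31035258-31036439 (minus), the Fxyd6 line within chr9:45390639-45390802 (plus) and the Fxyd7 line within chr7:31045002-31051359 (minus), and each span also holds intron sequence.
Fxyd1: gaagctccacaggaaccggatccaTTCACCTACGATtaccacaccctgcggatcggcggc
Fxyd5: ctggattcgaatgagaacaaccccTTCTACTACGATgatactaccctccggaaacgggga
Fxyd6: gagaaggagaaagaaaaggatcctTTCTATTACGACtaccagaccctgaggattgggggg
Fxyd7: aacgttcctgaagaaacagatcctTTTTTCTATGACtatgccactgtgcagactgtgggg

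The motif starts at codon 136 of the 185 codons of the Fxyd5 transcript used. It starts at codon 29 of 92 in Fxyd1, at codon 29 of 94 in Fxyd6 and at codon 18 of 80 in Fxyd7, so Fxyd5 alone among these 4 has a long stretch ahead of it. Over the 60 bases Fxyd5 was identical to Fxyd6 at 35, to Fxyd1 at 32 and to Fxyd7 at 30.

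The recovered read total of a library was between 31133443 and 37797812, and values are given as the deposited CPM (read counts divided by library sizes that the authors had adjusted). Kpna2 itself averaged 13.9 ± 1.11 CPM (SD, n = 4) under the wild type label, against 19.2 ± 2.76 CPM under the knockout label. It was higher in all 4 libraries labelled knockout than in any labelled wild type (log2 difference 0.44, SE 0.10, limma adjusted p = 0.0079). The target's transcript thus goes against the label. Which part of the gene was removed is not given in the labels, and every direction below is between libraries as labelled. Over the 22027 genes tested, 16.9% were called by limma at an adjusted p under 0.05, 8.62% as higher and 8.32% as lower in the knockout libraries, and in 20.9% the 2 groups did not overlap.

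Of the 8 members, 6 were past the limma threshold (5 higher and 1 lower), beside the 16.9% of all tested genes, and 6 had groups that did not overlap, beside 20.9%. Nothing is read from these counts, since this contrast chose the members. All 8 passed the filter on low values (mean over the 8 libraries of 0.5 CPM or more). Fxyd7 did so only through the knockout libraries, where it was higher, since its wild type mean was 0.445 CPM. The log2 difference, knockout minus wild type on log2(CPM + 0.5), ran from -0.59 for Fxyd1 to 1.53 for Fxyd5, with a median of 0.19 over the members and of -0.01 over all genes tested. The FXYD genes spanned that whole range, while the 4 pump subunits lay between -0.14 and 0.47.

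**Figure D1:**
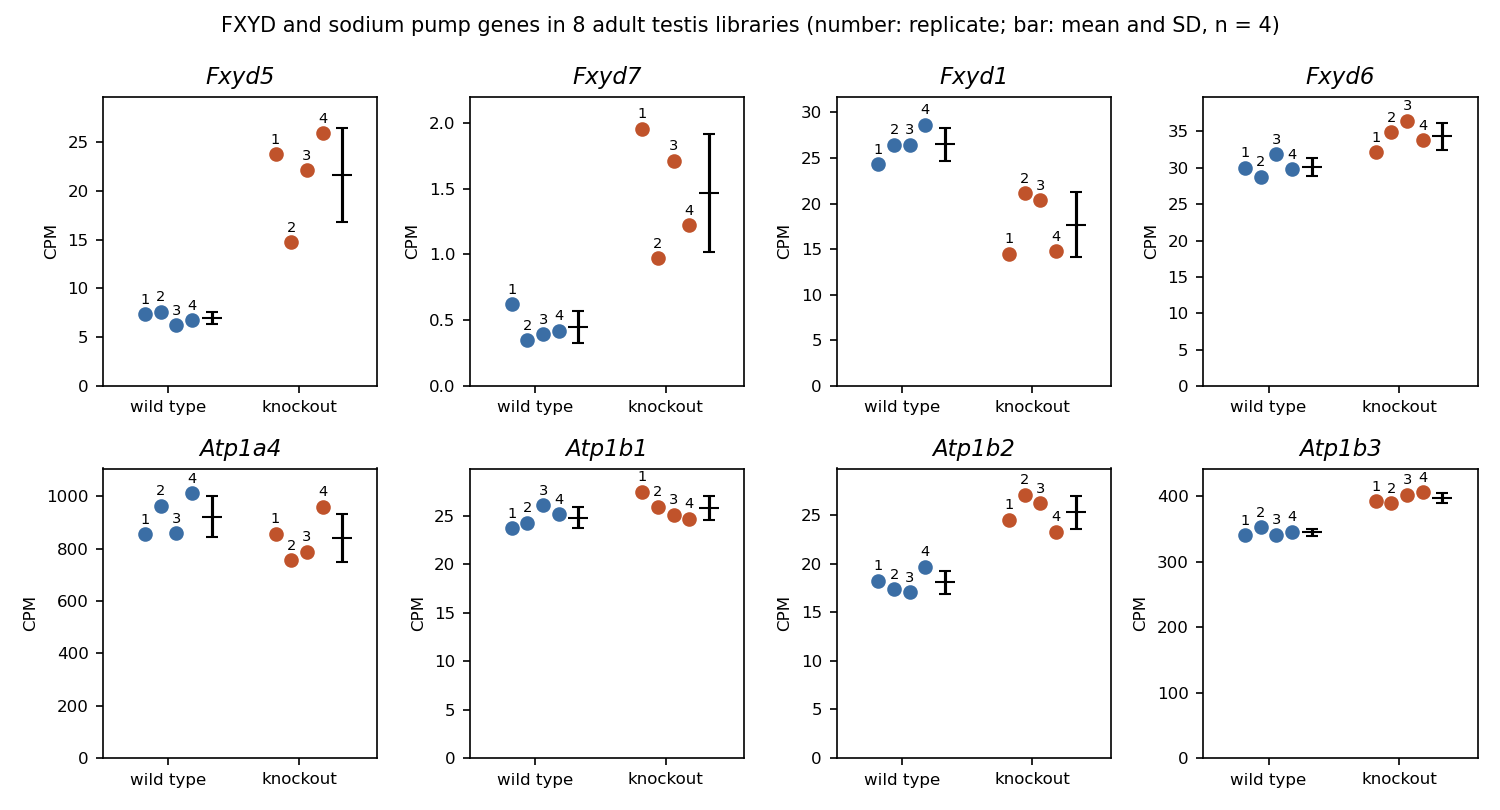
Each panel shows 1 gene, with CPM on the vertical axis from 0, a point for each library numbered by replicate, and a bar for the mean and SD of 4 libraries. Fxyd5, Fxyd7, Atp1b2 and Atp1b3 sit higher and Fxyd1 lower in the knockout libraries by more than the spread of either group, while Atp1a4 and Atp1b1 overlap.

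Fxyd5 (ENSMUSG00000009687, chr7:31032722-31042481, minus strand, GRCm38) encodes dysadherin, an FXYD protein with a long extracellular part. Its level was 7.36, 7.62, 6.25 and 6.76 CPM in wild type libraries 1 to 4 and 23.7, 14.7, 22.1 and 25.9 CPM in knockout libraries 1 to 4. The wild type libraries lay close together and every knockout library was above all of them, with knockout library 2 well below the other 3. The mean was 6.998 ± 0.617 CPM in wild type and 21.6 ± 4.85 CPM in knockout libraries (SD, n = 4), which is 3.09-fold higher, and the log2 difference was 1.53 (SE 0.14). From the most positive to the most negative difference Fxyd5 stood at place 46 of the 22027 genes. Between 207 and 889 reads per library stood behind these values. The coefficient of variation was 8.81% in wild type and 22.5% in knockout libraries.

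Fxyd7 (ENSMUSG00000036578, chr7:31042513-31051467, minus strand) encodes an FXYD protein described mainly in brain. It was at 0.623, 0.347, 0.392 and 0.419 CPM in the wild type libraries, against 1.96, 0.973, 1.71 and 1.22 CPM in the knockout libraries. All 4 knockout libraries were above all 4 wild type libraries, and as with Fxyd5 the lowest of them was library 2. These are few reads, 21, 12, 13 and 16 in wild type and 67, 34, 53 and 42 in knockout libraries. The mean was 0.445 ± 0.122 CPM against 1.47 ± 0.448 CPM (SD, n = 4), 3.29-fold higher on the linear scale. On the log2(CPM + 0.5) scale, which understates changes of low genes, the difference was 1.04 (SE 0.17), and it ran from 0.50 to 1.72 over the alternatives, which include other added constants.

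Fxyd1 (ENSMUSG00000036570, chr7:31051678-31057199, minus strand) encodes phospholemman, the main FXYD protein of heart and muscle. Its values were 24.3, 26.5, 26.5 and 28.7 CPM in wild type libraries and 14.5, 21.1, 20.4 and 14.8 CPM in knockout libraries. Every knockout library was below every wild type library, and knockout libraries 1 and 4 were the lowest. The mean was 26.5 ± 1.77 CPM against 17.7 ± 3.54 CPM (SD, n = 4), 1.496-fold lower, with a log2 difference of -0.59 (SE 0.11). This was the most negative log2 difference among the 8 members.

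Fxyd6 (ENSMUSG00000066705, chr9:45370185-45396159, plus strand) encodes phosphohippolin, an FXYD protein known from brain. It stood at 30.0, 28.8, 31.8 and 29.8 CPM in the wild type libraries, and at 32.1, 34.9, 36.5 and 33.8 CPM in the knockout libraries. The groups did not overlap, but the highest wild type and the lowest knockout library almost met. The mean was 30.1 ± 1.28 CPM against 34.3 ± 1.84 CPM (SD, n = 4), 1.14-fold higher, with a log2 difference of 0.19 (SE 0.06). The limma threshold is no test of Fxyd6, since this contrast chose the members. Even as a description its place past that threshold was unsteady, as it held in only 8 of 17 alternative analyses. The log2 difference of Fxyd6 without 1 library lay between 0.16 and 0.22, the former without knockout replicate 3.

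Atp1a4 (ENSMUSG00000007107, chr1:172223513-172258414, minus strand), the catalytic subunit of male germ cells, was at 855, 965, 860 and 1012 CPM in wild type libraries and at 857, 756, 789 and 961 CPM in knockout libraries. The groups overlapped: knockout libraries 2 and 3 were below all wild type libraries, and libraries 1 and 4 were among them. The mean was 923 ± 77.98 CPM against 841 ± 90.8 CPM (SD, n = 4), with a log2 difference of -0.14 (SE 0.08). The gap between the means was of the size of the SD within either group. How reads that match several places were treated is not given in the labels or notes, so reads from stretches that Atp1a4 shares with close copies are uncertain.

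Among the beta subunits, Atp1b3 (ENSMUSG00000032412, chr9:96332655-96364442, minus strand) had by far the most reads. It was at 341, 353, 342 and 346 CPM in wild type libraries and at 393, 389, 402 and 407 CPM in knockout libraries. Both groups were tight and did not overlap. The mean was 345 ± 5.63 CPM against 398 ± 8.01 CPM (SD, n = 4), 1.15-fold higher, with a log2 difference of 0.20 (SE 0.04).

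Atp1b2 (ENSMUSG00000041329, chr11:69599736-69605942, minus strand), a beta isoform also known as an adhesion molecule on glia, was at 18.3, 17.4, 17.1 and 19.7 CPM in wild type libraries. In knockout libraries it was at 24.6, 27.1, 26.3 and 23.3 CPM. All knockout libraries were above all wild type libraries. The mean was 18.1 ± 1.18 CPM against 25.3 ± 1.70 CPM (SD, n = 4), 1.40-fold higher, with a log2 difference of 0.47 (SE 0.07).

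Atp1b1 (ENSMUSG00000026576, chr1:164437109-164458355, minus strand), the general beta isoform, was at 23.7, 24.3, 26.1 and 25.2 CPM in wild type libraries and at 27.5, 25.9, 25.1 and 24.7 CPM in knockout libraries. The groups overlapped, with 1 knockout library above all wild type libraries. The mean was 24.8 ± 1.05 CPM against 25.8 ± 1.23 CPM (SD, n = 4), with a log2 difference of 0.05 (SE 0.06). Its gene shares 617 bases with Nme7 on the opposite strand, which was at 81.7 CPM in wild type and 80.7 CPM in knockout libraries. The strand setting of the counting is not given, so reads from the shared bases cannot be assigned.

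Further pump and FXYD genes, which did not enter the selection, were tested. The catalytic chains of the proton pumps, Atp4a of the stomach and Atp12a outside it, gave limma adjusted p values of 0.19 and 0.39 and were not called in any alternative, edgeR and DESeq2 included. Atp4a was at 2.12 ± 0.413 and 2.69 ± 0.364 CPM, and Atp12a at 0.883 ± 0.0700 and 0.727 ± 0.1001 CPM.

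Fxyd2, the gamma subunit of the kidney pump, was at 13.4 ± 2.38 CPM in wild type and 10.5 ± 0.898 CPM in knockout libraries (log2 difference -0.32, SE 0.11, limma adjusted p = 0.059). It was thus not called, with an unadjusted p of 0.011, and edgeR did not call it either. DESeq2 did, and so did limma when wild type replicate 3 or knockout replicate 2 was left out, and its adjusted p over the alternatives lay between 0.027 and 0.17. Fxyd3 had 5 to 22 reads per library, fell below the filter and was not tested. It was at 0.226 ± 0.0863 and 0.497 ± 0.167 CPM, with overlapping groups. Fxyd4 was not analysed here.

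Levels of different genes were set side by side as CPM per kb of merged exons (GENCODE M21). In wild type libraries the order was Atp1a4 at 252 ± 21.3, Atp1b3 at 145 ± 2.36 and Fxyd1 at 12.1 ± 0.810 CPM per kb (SD, n = 4). Below these came Atp1b1 at 8.06 ± 0.342, Fxyd6 at 7.33 ± 0.311 and Atp1b2 at 4.44 ± 0.289 CPM per kb. The germ cell alpha and 1 beta isoform thus stood far above the other genes given here. Fxyd2 at 3.35 ± 0.594, Fxyd5 at 1.67 ± 0.147 and Fxyd7 at 0.643 ± 0.176 CPM per kb followed, with Fxyd3 at 0.0466 last. Neighbours in this order whose library ranges overlapped in wild type were Atp1b1 with Fxyd6, and Atp1b2 with Fxyd2. In knockout libraries Fxyd5 was at 5.15 ± 1.16 CPM per kb, above Fxyd2 at 2.63 ± 0.224, and Fxyd1 at 8.10 ± 1.62 overlapped Atp1b1 and Fxyd6. The order of the FXYD genes depends on the length used. With the median length of each gene's coding transcripts, Fxyd5 at 26.4 CPM per kb was above Fxyd6 at 19.2 in knockout libraries. That choice of length was added after seeing the data.

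**Figure D2:**
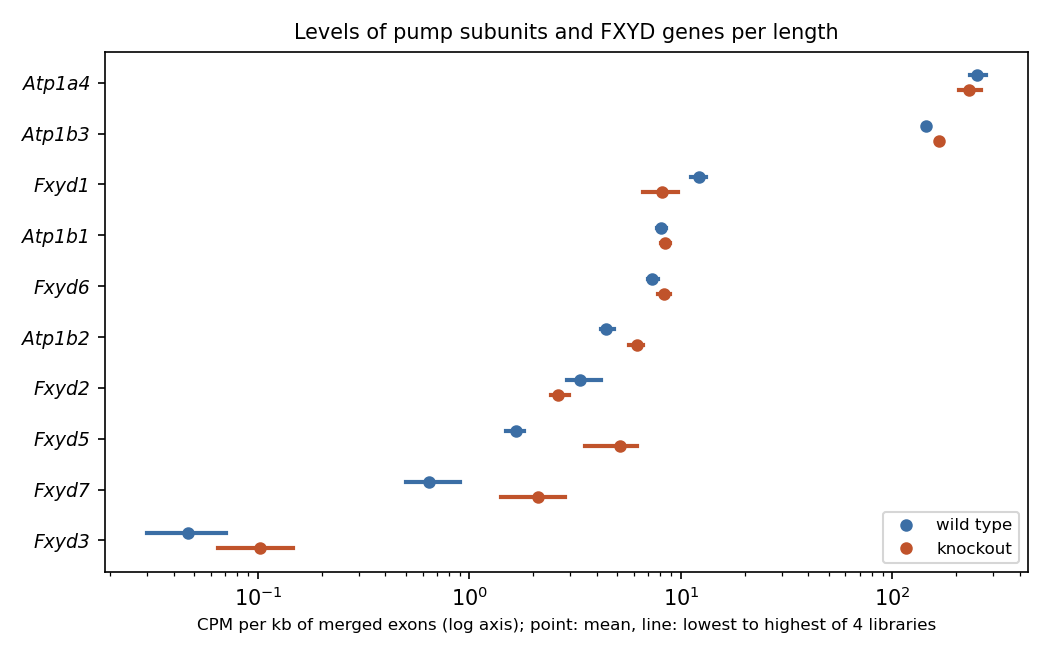
Mean level of the 8 members, Fxyd2 and Fxyd3 in CPM per kb of merged exons on a log axis, with a point for the mean and a line from the lowest to the highest of 4 libraries, in wild type (blue) and knockout (orange). Atp1a4 and Atp1b3 lie above the other genes shown in both groups, and Fxyd5 and Fxyd7 show the widest gap between the groups among the members.

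Atp1b3 made up 92.0% ± 0.291 and 91.9% ± 0.442 of the summed beta level per kb in wild type and knockout libraries (SD, n = 4), Atp1b1 5.13% and 4.63%, and Atp1b2 2.83% and 3.42%. The main beta isoform therefore held nearly the same share in both groups. The summed beta level was 157 ± 2.31 CPM per kb in wild type and 181 ± 2.82 CPM per kb in knockout libraries, without overlap.

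The make-up of the FXYD transcripts differed more, while their sum was 25.2 ± 0.604 CPM per kb in wild type and 26.5 ± 1.40 CPM per kb in knockout libraries (SD, n = 4). Fxyd5 took 7.18%, 7.09%, 5.996% and 6.28% of that sum in wild type libraries and 22.1%, 13.4%, 18.5% and 24.1% in knockout libraries. Fxyd1 took 48.1% ± 2.37 in wild type and 30.5% ± 5.33 in knockout libraries. Fxyd1 was the largest share in every wild type library, and in knockout libraries 1 and 4 Fxyd6 was larger. Fxyd6 took 29.2% and 31.6%, Fxyd2 13.3% and 9.98%, and Fxyd7 2.57% and 7.99%, as means of 4 libraries. These shares follow from the levels that chose the members and rest on the length used. With the coding transcript lengths Fxyd5 took 8.92% in wild type and 27.3% in knockout libraries. By those lengths Fxyd5, not Fxyd6, was above Fxyd1 in knockout libraries 1 and 4. There Fxyd5 took 31.3% and 32.9%, Fxyd1 29.0% and 28.5%, and Fxyd6 19.4% and 19.6%.

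**Figure D3:**
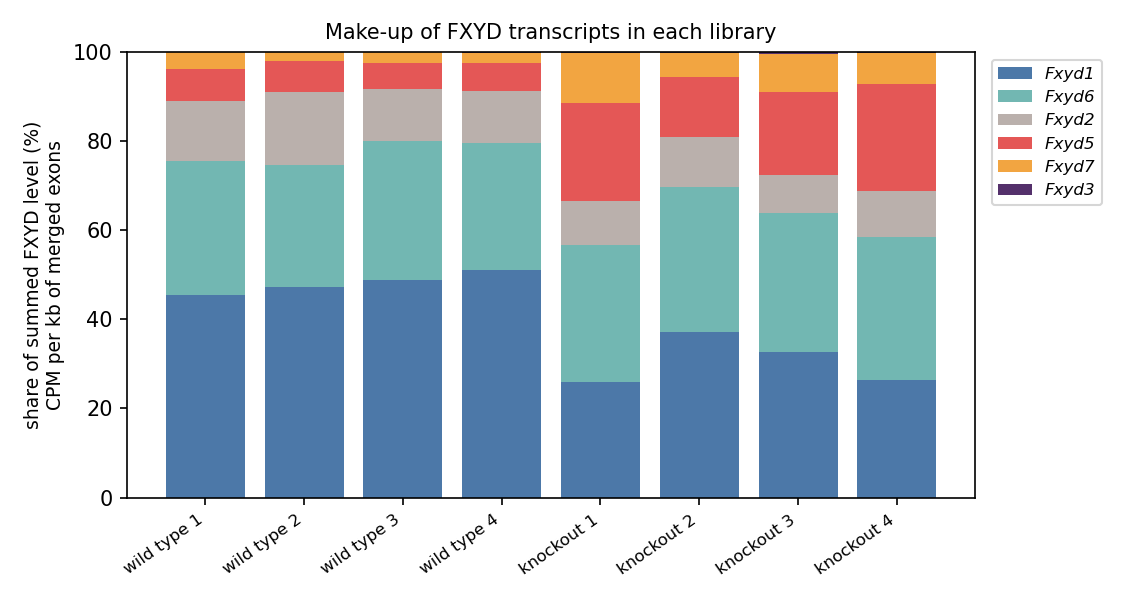
Stacked bars give the share (%) of each FXYD gene in the summed FXYD level, in CPM per kb of merged exons, for each of the 8 libraries. The Fxyd5 share lies between 5.996% and 7.18% in wild type and between 13.4% and 24.1% in knockout libraries, and the Fxyd1 share is smaller in every knockout library.

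Fxyd5, Fxyd7 and Fxyd1 lie side by side on chromosome 7, all on the minus strand, so that Fxyd7 ends 31 bases before Fxyd5 begins and Fxyd1 ends 210 bases before Fxyd7 begins. Neighbouring genes of the cluster thus stood on opposite sides, with Fxyd5 and Fxyd7 higher and Fxyd1 lower in knockout libraries. Whether reads that run past the end of 1 of these genes were counted in the next was not tested. Fxyd5 also holds the microRNA gene Mir7050, and Atp1a4 is overlapped by the antisense gene Gm37950, neither of which was analysed here.

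Among the 10 protein-coding genes on each side of Fxyd5, 9 that are not members were tested, and limma called 6 of them, all lower in knockout libraries, beside 8.32% of all tested genes. Gramd1a, a sterol transporter of the endoplasmic reticulum, fell from 30.3 ± 1.17 to 18.3 ± 2.27 CPM (log2 difference -0.72, SE 0.08, limma adjusted p = 3.1e-05). Lsr, a lipoprotein receptor of tricellular junctions, fell from 11.9 ± 1.12 to 7.65 ± 1.06 CPM (log2 difference -0.61, limma adjusted p = 0.0013). Fam187b fell from 302 ± 9.44 to 248 ± 23.2 CPM (log2 difference -0.29, limma adjusted p = 0.0052). These 3 lie on both sides of Fxyd5 and were called in all 17 alternatives.

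The serine protease gene Hpn fell from 0.972 ± 0.127 to 0.272 ± 0.138 CPM (log2 difference -0.94, limma adjusted p = 8.1e-04), with as few as 5 reads in a library. Its log2 difference ran from -1.83 with DESeq2 to -0.39 with 2 CPM added before the logarithm. Mag, a myelin adhesion protein, fell from 24.2 ± 1.40 to 19.7 ± 2.30 CPM (log2 difference -0.30, limma adjusted p = 0.024). The call of Mag was lost without wild type replicate 2 or 4 and without knockout replicate 1 or 2, where its adjusted p reached up to 0.075. Ffar1, Usf2 and Lgi4 were not called, with limma adjusted p values of 0.31, 0.098 and 0.81.

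Windows of the same size around the other members were added after seeing the data. Those of Fxyd7 and Fxyd1 overlap that of Fxyd5 and each also held 6 called of 9 tested genes outside the members. Of the tested neighbours, limma called 5 of 16 around Fxyd6, 4 of 16 around Atp1a4, 4 of 19 around Atp1b1, 3 of 19 around Atp1b2 and 1 of 20 around Atp1b3. Over all tested genes limma called 16.9% either way. Genes of 1 window are not independent, and the difference between windows was not tested.

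**Figure D4:**
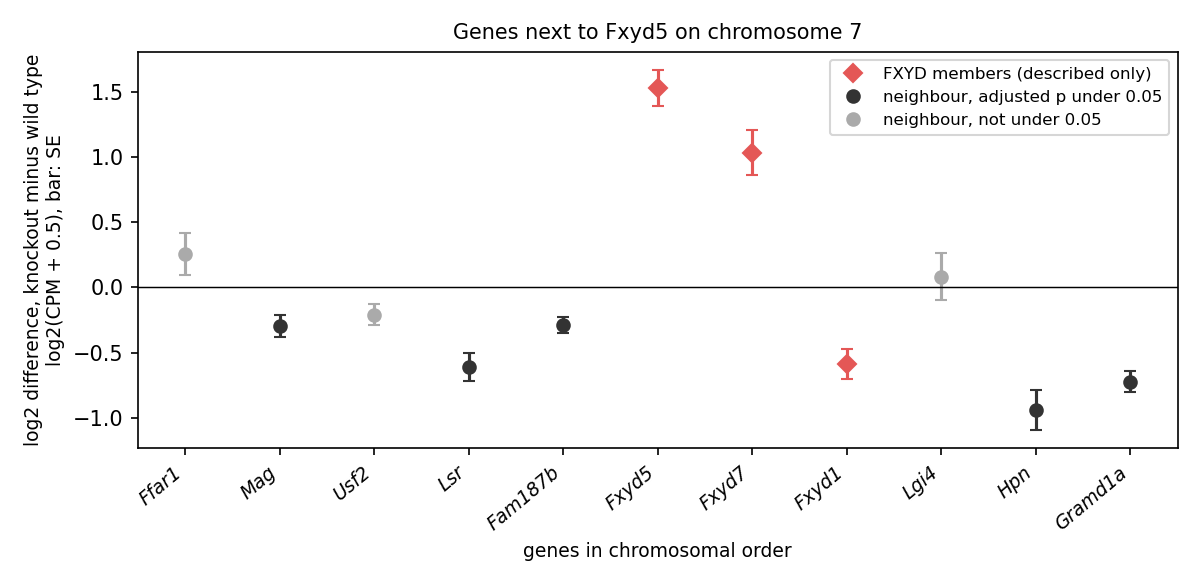
Log2 difference, knockout minus wild type, of 11 genes around and including Fxyd5 in chromosomal order, with bars for the SE; dark points are neighbours past the limma threshold and diamonds are members, whose differences are a description only. Fxyd5 and Fxyd7 lie at 1.53 and 1.04, while the 5 called neighbours shown lie between -0.94 and -0.29.

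The genes whose pattern was most like that of Fxyd5 were ranked by the root mean square difference over the 8 libraries, each gene taken on log2(CPM + 0.5) relative to its own wild type mean, among 13358 genes averaging 5 CPM or more. The closest was the pseudogene Scgb2b23-ps at 0.19, which was at 24.3 CPM in wild type and 85.1 CPM in knockout libraries. Next came Fmn1, an actin-nucleating formin, at 0.23 (36.7 and 108 CPM), and Runx3, a transcription factor, at 0.25 (6.28 and 15.5 CPM). The uncharacterised 1700105P06Rik (3.73 and 11.5 CPM) at 0.27 and 4930568E12Rik (5.34 and 14.0 CPM) at 0.28 followed. These 5 lie on 5 chromosomes, and 1 of them, Scgb2b23-ps, is on chromosome 7 with Fxyd5. The minimum of 5 CPM was on the mean over all 8 libraries. Of the named genes, 1700105P06Rik met it only through the knockout libraries, where it was higher. The ranking is a description of these libraries, since the shared difference between the groups dominates it.

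Of the genes of 7 lists around the pump, which hold ion transport and junction genes, 114 of 133 were tested, and limma called 22, 7 higher and 15 lower in knockout libraries. That is 19.3%, near the 16.9% of all tested genes, and their median log2 difference was -0.03. Without wild type replicate 2 the count was 14.

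Of 15 tested partners and regulators of the pump, 2 rose and 1 fell, with a median log2 difference of 0.01. Nkain4, of a family of proteins that bind the pump's beta subunit, rose from 1.61 ± 0.459 to 2.63 ± 0.289 CPM (limma adjusted p = 0.018). Sgk1, a kinase that stimulates sodium transport, fell from 5.55 ± 0.663 to 4.06 ± 0.363 CPM (limma adjusted p = 0.024). Ank2, an ankyrin that anchors the pump to the cytoskeleton, rose from 154 ± 8.62 to 178 ± 17.7 CPM (limma adjusted p = 0.045), with overlapping groups. All 3 calls depended on single libraries. That of Ank2 was lost in 7 of the 8 analyses that left out 1 library, that is without any but knockout replicate 4, with an adjusted p of up to 0.13. That of Sgk1 was lost without wild type replicate 1, 2 or 3 or knockout replicate 4 (up to 0.080), and that of Nkain4 without wild type replicate 2 or 4 (up to 0.061).

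Among sodium-coupled exchangers and cotransporters, which use the gradient the pump builds, 30 were tested, 1 rose and 4 fell, with a median of -0.06. The 1 that rose was Slc9c1, the sodium/proton exchanger of sperm, from 113 ± 10.2 to 145 ± 9.68 CPM (log2 difference 0.37, limma adjusted p = 0.0021). The glutamine carrier Slc38a1 fell from 3.81 ± 0.786 to 1.53 ± 0.479 CPM (log2 difference -1.11, or -0.72 with 2 CPM added, limma adjusted p = 9.4e-04). Its relative Slc38a2 fell from 33.4 ± 0.826 to 26.4 ± 2.73 CPM (log2 difference -0.34, limma adjusted p = 0.0057). Groups of all 3 genes did not overlap, and each was called in all 17 alternatives.

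Of 24 tested sodium and chloride channel genes, 1 rose and 5 fell, with a median of -0.02. Nalcn, the sodium leak channel, fell from 2.93 ± 0.313 to 1.58 ± 0.357 CPM (log2 difference -0.73, or -0.46 with 2 CPM added, limma adjusted p = 0.0035). Scn4a, a voltage-gated sodium channel of muscle, fell from 3.72 ± 0.638 to 2.36 ± 0.290 CPM (limma adjusted p = 0.011). Clcn4, a chloride/proton exchanger of internal membranes, rose from 43.8 ± 1.82 to 50.8 ± 2.13 CPM (limma adjusted p = 0.017), and this call was lost without wild type replicate 1 or 2 (up to 0.060).

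Of 15 tested P-type ATPases that pump other ions, 2 were called, both lower, with a median of 0.04. They were Atp2c1, the calcium and manganese pump of the Golgi, from 51.3 ± 4.90 to 43.6 ± 1.013 CPM (limma adjusted p = 0.029), and Atp2b1, a calcium pump of the cell membrane, from 19.5 ± 1.07 to 16.5 ± 1.14 CPM (limma adjusted p = 0.038). Both calls depended on single libraries. That of Atp2c1 was lost without wild type replicate 2 or 4 or knockout replicate 3 or 4 (up to 0.071), and that of Atp2b1 without wild type replicate 1, 3 or 4 or knockout replicate 3 or 4 (up to 0.11).

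Dysadherin is known for its effect on cell adhesion, and of 24 tested adherens and tight junction genes 3 rose and 3 fell, with a median of -0.06. The adhesion molecule Jam2 fell from 31.3 ± 2.50 to 24.6 ± 1.25 CPM (log2 difference -0.34, limma adjusted p = 0.0036), and the gap junction protein gene Gja1 fell from 50.6 ± 3.33 to 40.5 ± 3.04 CPM (log2 difference -0.32, limma adjusted p = 0.0044). Both were called in each of the 17 alternatives. E-cadherin, the adhesion protein that dysadherin is known to oppose, is encoded by Cdh1, which is named here after its values were seen. Cdh1 fell from 1.22 ± 0.219 to 0.666 ± 0.111 CPM (limma adjusted p = 0.014).

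Marker genes of testis cell types were summed in each library and set beside the members. The counts of called markers, here and in the next paragraph, stand beside 8.62% of all tested genes called higher and 8.32% called lower. The tissue label was met by spermatid markers, whose summed level was 28420 to 29896 CPM in wild type and 25679 to 32320 CPM in knockout libraries, with 0 of 14 called by limma, edgeR or DESeq2 and 2 at an unadjusted limma p under 0.05. The summed level of 10 Leydig cell markers was 1209 to 1423 CPM in wild type libraries and 817, 1249, 1166 and 980 CPM in knockout libraries, and limma called 1 of 10 higher and 5 lower. That of adipocyte and mesothelial markers was 41.2 to 46.3 CPM in wild type and 28.2, 35.3, 34.6 and 24.4 CPM in knockout libraries, with 4 of 8 lower. Fxyd1 was lowest in the same knockout libraries, 1 and 4, as these 2 sums. This was not particular to them. The Sertoli cell sum was 1599, 1652, 1618 and 1437 CPM in knockout libraries 1 to 4. The epididymal and rete sum was 446, 508, 502 and 452 CPM, so both were also lowest in libraries 1 and 4. In wild type libraries 1 to 4, Fxyd1 was at 24.3, 26.5, 26.5 and 28.7 CPM. The Leydig sum there was 1243, 1314, 1209 and 1423 CPM, and the adipocyte and mesothelial sum 46.3, 45.1, 43.3 and 41.2 CPM. The adipocyte and mesothelial sum thus ran opposite to Fxyd1 in wild type libraries. Whether these sums and Fxyd1 vary together was not tested. Peritubular myoid markers summed to 410 to 488 CPM in wild type and 360 to 377 CPM in knockout libraries, with 4 of 9 lower. Markers of Schwann cells and neurons summed to 55.2 to 63.9 CPM in wild type and 57.6 to 61.0 CPM in knockout libraries, with 2 of 7 higher.

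Sertoli cell markers summed to 1636 to 1764 CPM in wild type and 1437 to 1652 CPM in knockout libraries, with 1 of 15 higher and 3 lower. Spermatogonial markers summed to 127 to 137 CPM and 116 to 128 CPM, with 3 of 10 lower, and spermatocyte markers to 1433 to 1489 CPM and 1404 to 1554 CPM, with 1 of 10 higher and 1 lower. Macrophage markers summed to 463 to 510 CPM and 419 to 502 CPM, with 1 of 12 lower, and endothelial markers to 43.0 to 49.4 CPM and 35.6 to 44.5 CPM, with 2 of 10 lower. Lymphocyte markers summed to 17.6 to 23.0 CPM and 15.7 to 27.1 CPM, with 0 of 6 called by limma, edgeR or DESeq2 and 2 at an unadjusted limma p under 0.05. Red blood cell markers summed to 34.1 to 50.6 CPM and 31.4 to 39.8 CPM, with 1 of 6 lower. Markers of epididymal and rete epithelium summed to 454 to 503 CPM and 446 to 508 CPM, with 1 of 7 higher and 1 lower. Several sums rest mainly on 1 or 2 genes, so they say little about the other markers. In wild type libraries Spink2 averaged 321 CPM and Lcn2 108 CPM among the epididymal and rete markers. Aif1 averaged 381 CPM among macrophage, Actg2 296 CPM among peritubular myoid and Clu 842 CPM among Sertoli cell markers. Every marker analysed had reads in at least 1 library, while Cd8a, Nkg7, Snap25, Nefl, Krt14 and 7 of 15 epididymal and rete markers were not analysed here. The part of these cell types in the levels of the members was not tested.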

How the data were processed

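Total RNA of whole adult testis was extracted with TRIzol, DNase treated and made into TruSeq libraries, per the labels' protocols. Trimmomatic, Subread and featureCounts and the build GRCm39 (mm39) are named in the submitters' processing notes; versions, annotation release, strand and multi-mapping settings are not stated there. The authors deposited a scaled signal, named CPM in the file, for 24988 genes in 8 libraries, with columns named control and kpn that were matched to the wild type and knockout titles by number. Columns sum to 990244 to 1025489, so library sizes had been adjusted. All values (100%) were whole multiples of 1 read within 0.01, which gave back 31133443 to 37797812 reads per library. A floor of 3 reads is 0.0786 to 0.0968 CPM, covering counting error alone. Plain CPM had been assumed in the plan, whose test was kept.

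limma 3.58.1 in R 4.3.3 (lmFit, eBayes with trend) was run on log2(CPM + 0.5) for the 22027 genes averaging 0.5 CPM or more. Adjusted p values are Benjamini-Hochberg values and calls are those under 0.05. On the recovered reads, edgeR 4.0.16 (quasi-likelihood) called 3694 genes, beside 3731 with limma, and DESeq2 1.42.0 was also run. Other alternatives were scaling, added constant, filter, replicate block and leaving out each library. The members and lists were chosen with earlier results of these data known. Named were all members and other family genes, per list up to 3 called genes of smallest p and the first in the other direction, the called neighbours of Fxyd5 and the 5 genes most like it. Symbols (24890 matched), coordinates and lengths are from GENCODE M21 on GRCm38, another build than the authors used, and were not converted. Deviations of same-numbered libraries were close to uncorrelated, which cannot exclude a pairing. Some genes this rule names are not reported here, though counts over lists and windows include them.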

Additional observations from a re-analysis of the deposited data

How the results depend on the processing

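Over 17 alternatives the number of genes called ranged from 2791 to 4073 (2791 to 3571 with 1 library left out), the calls in the 7 lists from 14 to 23 (14 to 22) and the called neighbours of Fxyd5 from 4 to 6 (5 to 6). With a minimum mean of 2 CPM, Fxyd7, Hpn, Cdh1 and Atp12a gave no value. With 1 library left out the log2 difference of Fxyd5 was 1.44 to 1.70, of Fxyd7 0.92 to 1.16, of Fxyd1 -0.68 to -0.50 and of Atp1b2 0.44 to 0.51. None of the genes named with a limma adjusted p under 0.05 changed direction in the alternatives run for it.

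With the replicate number as a replicate block, 3446 genes and 21 list genes were past the threshold. Atp2b1 lost its call and Fxyd2 gained one. Deviations of same-numbered libraries correlated at -0.02, 0.04, -0.02 and -0.03. Libraries of different number correlated at -0.06 to 0.07. Such values show no pairing by number but cannot exclude a shared litter or batch, which the labels do not give. Depth limits Fxyd7, Fxyd3 and Hpn, which rest on few reads. Shares between genes depend on the length used: with coding transcript lengths Atp1b3 took 91.5% and 91.3% of the beta level in wild type and knockout libraries, and the wild type mean of Fxyd2 was above that of Fxyd6.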
